A study of Rattus norvegicus with 10 samples.

Results

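Cholesterol in the brain is made on the spot, because lipoproteins of the blood hardly cross its barrier, and much of it ends in the myelin that oligodendrocytes wrap around axons. Synthesis runs from acetyl-CoA through mevalonate and squalene to lanosterol and on to cholesterol. It is set by SREBP transcription factors, which Scap carries out of the endoplasmic reticulum when sterols are low and Insig proteins hold back when sterols are high. Surplus cholesterol is exported by ABC transporters under the control of the LXR nuclear receptors, stored as esters, or turned into oxysterols.

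The genes described are 37 that encode enzymes, transporters and sensors of this system, of 32623 genes in the table. They were chosen by name and sorted by role into 18 enzymes of synthesis and 19 other members. All 37 had 1 row each and a mean of at least 10 normalized counts over the 10 samples, and were tested. RNA was sequenced from supraoptic nuclei, a pair of hypothalamic nuclei rich in vasopressin and oxytocin neurons, in 5 shControl and 5 shOpn3 samples. The donors were male Sprague-Dawley rats weighing 250 to 300 g. Each animal had received adeno-associated virus with a hairpin against the opsin gene Opn3 (shOpn3) in one nucleus and virus with a hairpin without a target (shControl) in the other. The nuclei were punched 2 weeks later, each extracted by itself, so both groups carry a virus and no uninjected tissue was compared. Neither the age of the rats nor the cells reached by the virus is given. A 1 mm punch from sections of 100 µm holds every cell type of the nucleus and its surroundings.

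Libraries held 33158341 to 39958578 reads. Opn3 had 261 to 1007 normalized counts in shControl and 145 to 290 in shOpn3, with 26.7% of the control mean left, and the groups overlapped (log2 fold change -1.82, limma adjusted p = 0.00226). The overlap came from shControl replicate 5, at 261, while the other controls had 694 to 1007. Opn3 was lower in shOpn3 in 5 of 5 pairs, with 261 against 145 in pair 5. The 12 markers of magnocellular neurons, the cells that define the nucleus, were all detected. Equal replicate numbers were taken to mark the same rat, as described under the processing. A normalized count is a read count divided by the authors' size factor of its sample. Fold changes are shOpn3 minus shControl on the log2(normalized count + 1) scale with a standard error (SE), and a gene is called when its limma p, adjusted over 15597 genes by the Benjamini-Hochberg method, is under 0.05. By that rule 18.8% of all genes tested were called, 10.4% higher and 8.48% lower in shOpn3, and the median log2 fold change of all genes was -0.02.

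The stretch before the transcription start is shown for genes whose call held in every alternative fit. Promoters were available for 32 of the 37 members from RefSeq on build GRCr8 (35 promoters). The 250 bases before the start are printed for the 3 synthesis genes called in every alternative fit, Hmgcs1, Cyp51 and Msmo1, and for 2 genes that rose in every one, Abca1 and Cyp46a1. Capitals mark the inverted CCAAT box (ATTGG), the GC box (GGGCGG) and the E-box (CACGTG) on either strand. Npc1, also called in every alternative fit, is not printed and held 0 inverted CCAAT boxes and 4 GC boxes. The positions are chr2:53382054-53382303 (plus strand) for Hmgcs1, chr4:30991443-30991692 (plus strand) for Cyp51, chr16:29746863-29747112 (plus strand) for Msmo1, chr5:72596474-72596723 (minus strand) for Abca1 and chr6:133011740-133011989 (plus strand) for Cyp46a1.
Hmgcs1: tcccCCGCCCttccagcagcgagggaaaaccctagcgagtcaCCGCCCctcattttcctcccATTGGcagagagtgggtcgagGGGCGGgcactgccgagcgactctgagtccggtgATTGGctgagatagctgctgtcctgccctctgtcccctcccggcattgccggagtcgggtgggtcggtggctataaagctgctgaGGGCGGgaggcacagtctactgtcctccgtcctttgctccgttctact
Cyp51: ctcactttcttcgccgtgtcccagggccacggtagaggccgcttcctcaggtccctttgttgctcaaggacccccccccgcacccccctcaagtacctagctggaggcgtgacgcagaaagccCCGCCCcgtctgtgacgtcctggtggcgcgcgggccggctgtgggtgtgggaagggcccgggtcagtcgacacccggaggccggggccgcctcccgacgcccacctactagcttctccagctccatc
Msmo1: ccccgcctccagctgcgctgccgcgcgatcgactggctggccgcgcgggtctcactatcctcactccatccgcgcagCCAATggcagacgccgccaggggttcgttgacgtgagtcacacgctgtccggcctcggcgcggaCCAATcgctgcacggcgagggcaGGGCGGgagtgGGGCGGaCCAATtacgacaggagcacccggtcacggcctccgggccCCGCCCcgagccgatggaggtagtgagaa
Abca1: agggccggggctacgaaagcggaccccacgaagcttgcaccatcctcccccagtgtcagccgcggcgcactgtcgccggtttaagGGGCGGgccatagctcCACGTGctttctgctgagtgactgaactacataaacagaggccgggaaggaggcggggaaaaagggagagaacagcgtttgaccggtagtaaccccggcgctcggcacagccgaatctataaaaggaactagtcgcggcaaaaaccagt
Cyp46a1: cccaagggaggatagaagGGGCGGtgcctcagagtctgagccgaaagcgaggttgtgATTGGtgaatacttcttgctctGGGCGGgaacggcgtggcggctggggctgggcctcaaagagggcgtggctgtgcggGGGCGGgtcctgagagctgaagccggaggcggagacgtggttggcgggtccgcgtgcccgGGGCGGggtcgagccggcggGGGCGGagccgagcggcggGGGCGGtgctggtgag

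ATTGG or its reverse complement stood in 12 of 15 promoters of synthesis enzymes (80%), in 12 of 20 promoters of other members (60%) and in 34% of all 33469 promoters of that length. It is the site of NF-Y, a usual partner of SREBP. GGGCGG, the box of Sp1, stood in 86.7%, 70% and 30.5% of the same sets. The median GC content was 60.8%, 61.2% and 51.2%, so the sets differ in base composition as well. Among the 20 promoters of other members, Apoe and Srebf1 have more than 1 each. Windows of Apoe overlap, so the GC boxes they share count more than once. Hmgcs1 and Msmo1 held 2 and 3 inverted CCAAT boxes, while Cyp51 held 0. Of the printed genes that rose, Cyp46a1 held 1 and Abca1 held 0. The sterol regulatory element TCACNCCAC, searched on both strands, was in 0 of the 35 member promoters and in 0.974% of all. Elements that differ from these letters were not counted, and so rare a match cannot tell whether members lack such sites. An exact direct repeat of AGGTCA spaced by 4 bases, the classical LXR element, was in 0 of 35. It was in 1 of all 33469 promoters (0.00299%), and repeats that differ from it in any letter were not counted. So rare a match cannot tell whether Abca1 or any other member holds an LXR site in this stretch. A match or its absence describes these letters in this window alone. No motif hits overlapped in the 5 promoters printed.

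Of the 18 synthesis enzymes 9 fell in shOpn3, the first of them on the route being Hmgcs1 and the last Dhcr7. All 18 had a log2 fold change below 0 (median -0.36, range -0.60 to -0.09), and 0 were called higher in limma, with 0 higher at an unadjusted p under 0.05 and 0 higher in edgeR or DESeq2. This share of called-lower members, 9 of 18, stands beside 8.48% of all genes. The summed normalized counts of the 18 enzymes averaged 88325 ± 3004 in shControl against 66646 ± 5731 in shOpn3 (SD, n = 5 each), or 75.5% of control. In 14 of the 18 every pair was lower, against 20.7% of all genes tested. With the replicate number as a block 13 of 18 were called lower, where 15.2% of all genes were, and Mvk, Pmvk, Lss and Ebp were the additional ones. In bulk tissue fewer cells of a type and less RNA per cell cannot be told apart.

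**Figure D1:**
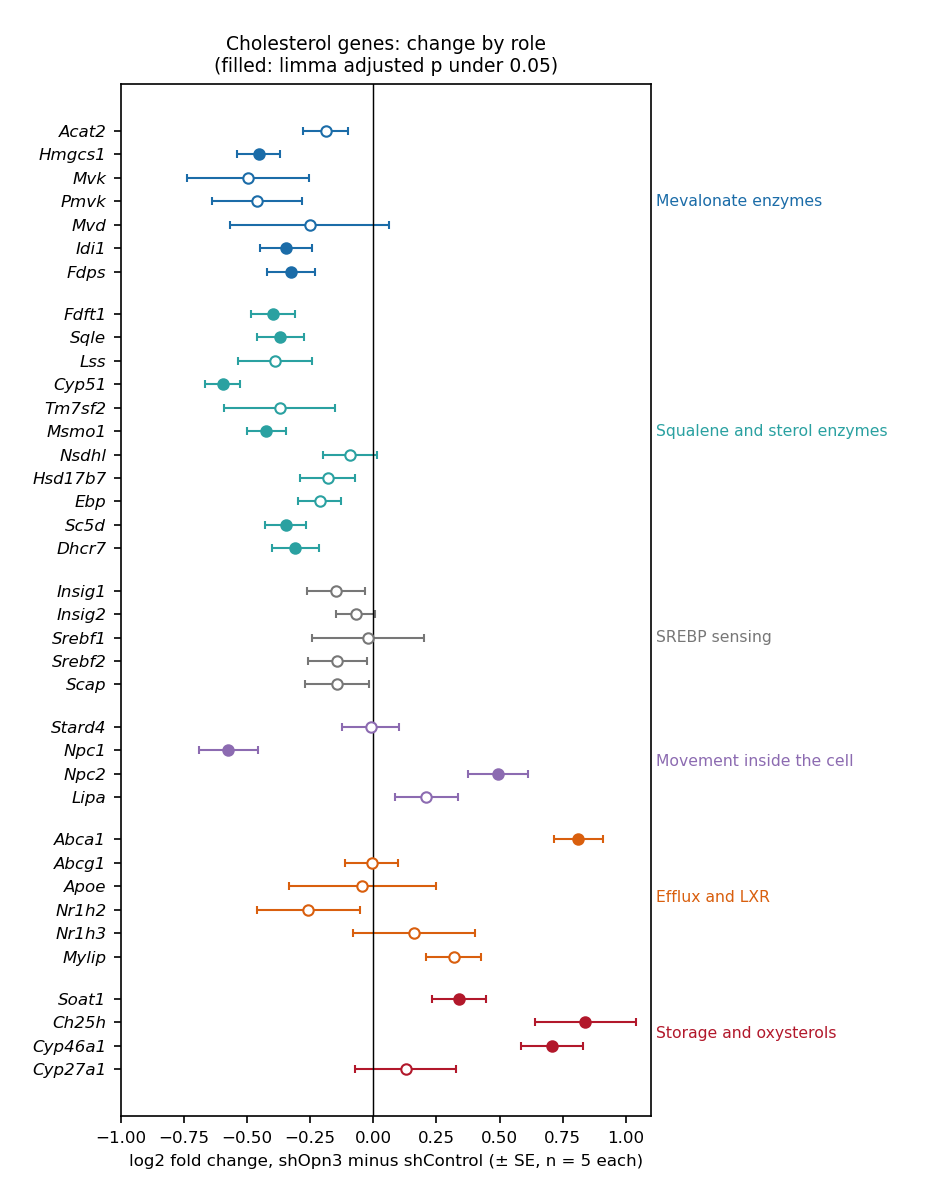
Log2 fold change (shOpn3 minus shControl, ± SE, n = 5 each) of each of the 37 members, grouped by role, with filled points for a limma adjusted p under 0.05. All 18 synthesis enzymes lie left of 0 (-0.60 to -0.09), and Abca1, Ch25h and Cyp46a1 lie farthest to the right (0.81, 0.84 and 0.71).

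In the mevalonate branch 3 of 7 enzymes were called lower. Hmgcs1 (ENSRNOG00000016552), which makes HMG-CoA, had 22116, 19980, 21752, 20379 and 20790 normalized counts in shControl replicates 1 to 5 and 15733, 18427, 14709, 13555 and 14600 in shOpn3 replicates 1 to 5. The groups did not overlap, and shOpn3 replicate 2 came closest to the controls. The shOpn3 mean of Hmgcs1 was 73.3% of control (log2 fold change -0.45, SE 0.0862, limma adjusted p = 0.00347). Idi1 (ENSRNOG00000016690), the isomerase of the isoprenoid building blocks, had 2643, 2635, 3050, 2939 and 2719 in shControl and 1859, 2785, 2298, 2137 and 2014 in shOpn3. Here shOpn3 replicate 2 lay inside the control range, and 4 of 5 pairs were lower (log2 fold change -0.35, SE 0.102, limma adjusted p = 0.0336). Fdps (ENSRNOG00000043377), which joins those blocks into farnesyl diphosphate, had 7710, 6321, 6319, 6278 and 6427 in shControl and 5588, 6244, 4865, 4522 and 5253 in shOpn3. The groups almost touched, at 6278 and 6244 (log2 fold change -0.32, SE 0.0954, limma adjusted p = 0.0324).

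The other 4 mevalonate enzymes were not called. Mvk and Pmvk, the kinases that phosphorylate mevalonate in turn, had the widest spread in shControl relative to their level, together with the decarboxylase Mvd. Mvk (ENSRNOG00000049604) had 700, 329, 294, 287 and 472 normalized counts in shControl and 349, 239, 221, 254 and 351 in shOpn3 (log2 fold change -0.49, SE 0.242, limma adjusted p = 0.181, or 0.0158 with the replicate block). It was lower in 5 of 5 pairs, while the groups overlapped widely because control replicates 2, 3 and 4 were near the shOpn3 values. Pmvk (ENSRNOG00000020696) had 1834, 1086, 1066, 1218 and 1719 in shControl and 1113, 953, 762, 890 and 1250 in shOpn3 (log2 fold change -0.46, SE 0.178, limma adjusted p = 0.0945, or 0.00375 with the replicate block). Mvd had 186 ± 103 and 146 ± 41.0 (SD, n = 5 each; limma adjusted p = 0.628), and Acat2, the thiolase that starts the route, had 996 ± 108 and 872 ± 60.9 (SD, n = 5 each; limma adjusted p = 0.168).

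From squalene onward 6 of 11 enzymes were called lower, and Cyp51 had the lowest log2 fold change of all 37 members. Cyp51 (ENSRNOG00000007234), the demethylase that acts on lanosterol, had 13177, 11815, 12536, 12633 and 13845 normalized counts in shControl and 8138, 9158, 7753, 8686 and 8576 in shOpn3. Every shOpn3 sample was below every control by a wide margin, and 66.1% of the control mean was left (log2 fold change -0.60, SE 0.0706, limma adjusted p = 0.000331). In the authors' deposited table its log2 fold change was -0.60 (standard error 0.0719). Msmo1 (ENSRNOG00000032297), the methyl sterol oxidase that acts later on the ring, had 8893, 8396, 9263, 9080 and 8681 in shControl and 6342, 7864, 6506, 6229 and 6184 in shOpn3. Its groups did not overlap, with shOpn3 replicate 2 standing well above its group (log2 fold change -0.42, SE 0.0771, limma adjusted p = 0.00271).

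Fdft1 (ENSRNOG00000021314), squalene synthase, had 7498, 6670, 7285, 7091 and 7353 normalized counts in shControl and 5365, 6650, 5295, 4745 and 5343 in shOpn3. Apart from replicate 2, at 6650 just below the lowest control of 6670, the shOpn3 values were well separated (log2 fold change -0.40, SE 0.0862, limma adjusted p = 0.00718). Sqle (ENSRNOG00000009550), the epoxidase that commits squalene to sterols, had 5015, 5216, 6155, 5896 and 5293 in shControl and 3920, 5185, 4433, 3918 and 3973 in shOpn3. The groups overlapped through shOpn3 replicate 2 (log2 fold change -0.37, SE 0.0939, limma adjusted p = 0.0167). Sc5d (ENSRNOG00000008305), a desaturase near the end of the route, had 12526, 13388, 15332, 15159 and 12911 in shControl and 9974, 12010, 10975, 10665 and 10806 in shOpn3, without overlap (log2 fold change -0.35, SE 0.0811, limma adjusted p = 0.0108). Dhcr7 (ENSRNOG00000020776), the reductase that yields cholesterol in one branch, had 1757, 1553, 1365, 1443 and 1738 in shControl and 1396, 1226, 1319, 1279 and 1104 in shOpn3. Its groups overlapped slightly, at shOpn3 replicate 1 (log2 fold change -0.31, SE 0.0933, limma adjusted p = 0.0360).

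Of the 5 uncalled enzymes in this stretch, Lss, the cyclase that forms lanosterol, came nearest. Lss (ENSRNOG00000054549) had 1936, 1227, 1158, 1216 and 1702 normalized counts in shControl and 1146, 1019, 924, 1128 and 1216 in shOpn3 (log2 fold change -0.39, SE 0.146, limma adjusted p = 0.0859, or 0.0149 with the replicate block). The sterol isomerase Ebp had 699 ± 61.1 and 602 ± 38.2 (SD, n = 5 each; limma adjusted p = 0.109, or 0.0481 with the replicate block). The reductase Tm7sf2 had 228 ± 79.6 and 169 ± 26.5 (SD, n = 5 each; limma adjusted p = 0.275). Nsdhl and Hsd17b7, which with Msmo1 remove the methyl groups beside the sterol hydroxyl, had 94.2% and 88.5% of the control mean (limma adjusted p = 0.592 and 0.279). Over the 9 uncalled enzymes of both stretches the shOpn3 mean was 67.9% to 94.2% of control.

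**Figure D2:**
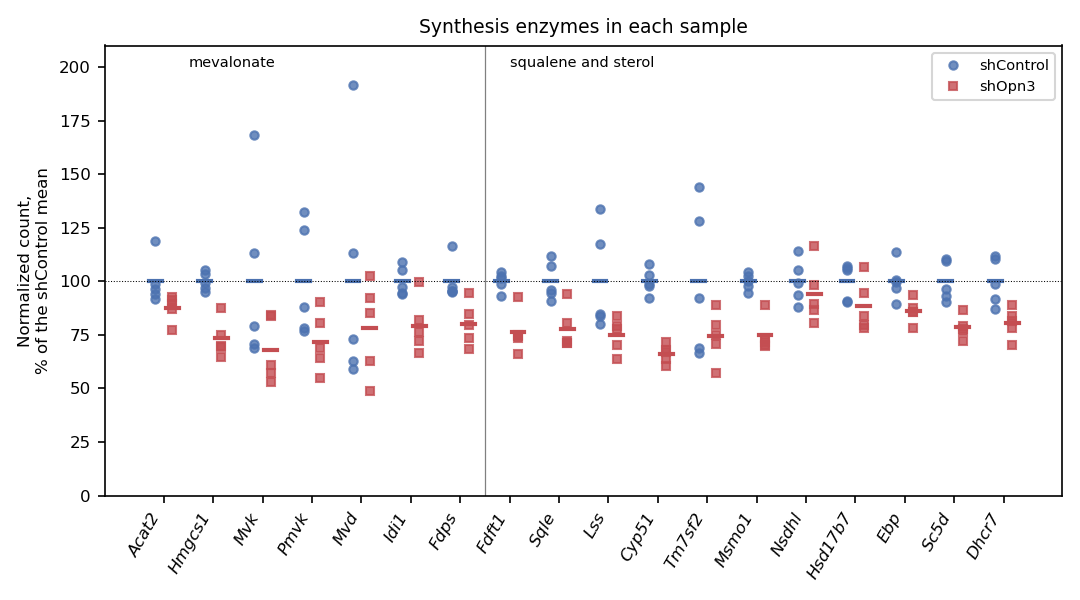
Normalized counts of the 18 synthesis enzymes in each sample, as a percentage of the gene's shControl mean, with circles for shControl, squares for shOpn3 and short lines for the group means. The shOpn3 means lie between 66.1% (Cyp51) and 94.2% (Nsdhl) of control, and Mvk, Pmvk, Mvd, Lss and Tm7sf2 have the widest spread among controls.

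The calls of Idi1, Fdps and Dhcr7 were narrow: leaving out any of 7, 6 and 7 single libraries ended them, with adjusted p up to 0.0842, 0.0893 and 0.0928 in limma. The libraries concerned were shControl replicates 2, 3 and 4 and shOpn3 replicates 1, 3, 4 and 5 for Idi1, shControl replicates 1, 2 and 4 and shOpn3 replicates 3, 4 and 5 for Fdps, and shControl replicates 1, 2 and 5 and shOpn3 replicates 2, 3, 4 and 5 for Dhcr7. Without shControl replicate 1 the log2 fold change of Mvd was 0.02 and 17 of the 18 enzymes lay below 0, and without shControl replicate 2 or shOpn3 replicate 3, 4 or 5 the enzymes called lower numbered 6. Without pair 3 or pair 5 they numbered 5, and without pair 4 they numbered 4. Sqle lost its call without pair 3, 4 or 5, and Sc5d without pair 3 or 4. Fdft1 and Sqle lost theirs without pairs 1 and 5 together, and Fdps also with quantile normalization.

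Markers of some cell types moved between the groups too. Their counts stand beside 10.4% of all genes called higher and 8.48% called lower. Of 12 oligodendrocyte markers 11 were called lower and 0 stood at 0, and their summed normalized counts ranged from 767039 to 1300980 in shControl and from 263950 to 495346 in shOpn3 (40.8% of the control mean). Of 12 microglia and macrophage markers 11 were called higher, with sums of 10722 to 15347 and of 20213 to 42050. Magnocellular markers were called lower in 10 of 12, with sums of 94652 to 220620 and of 43924 to 83462. Of 12 astrocyte markers 3 were higher and 1 lower, with sums of 353045 to 454021 and of 392415 to 533703. Of 12 neuron markers 1 was higher and 2 lower, with sums of 161248 to 226305 and of 154965 to 266913. Of endothelium and blood 0 of 8 were called (0 at an unadjusted p under 0.05, and 0 in edgeR or DESeq2). With the replicate block 1 of these 8, Slco1a4, was called higher (limma adjusted p = 0.0442). The neuron counts are near the shares of all genes called. The part of all these cell types in the changes of the cholesterol genes was not tested.

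Within shControl, replicate 2 was lowest both in the sum of the 18 synthesis enzymes (83343) and in that of the oligodendrocyte markers (767039). The oligodendrocyte sum was highest in replicate 5 (1300980) and the enzyme sum in replicate 1 (90813). Within shOpn3, replicate 2 was highest in the enzyme sum (76696) and lowest in the oligodendrocyte sum (263950). That library was also the highest of its group in neuron markers (266913) and magnocellular markers (83462). It was the lowest in microglia and macrophage markers (20213) and astrocyte markers (392415). The part of any of these in its enzyme level was not tested.

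**Figure D3:**
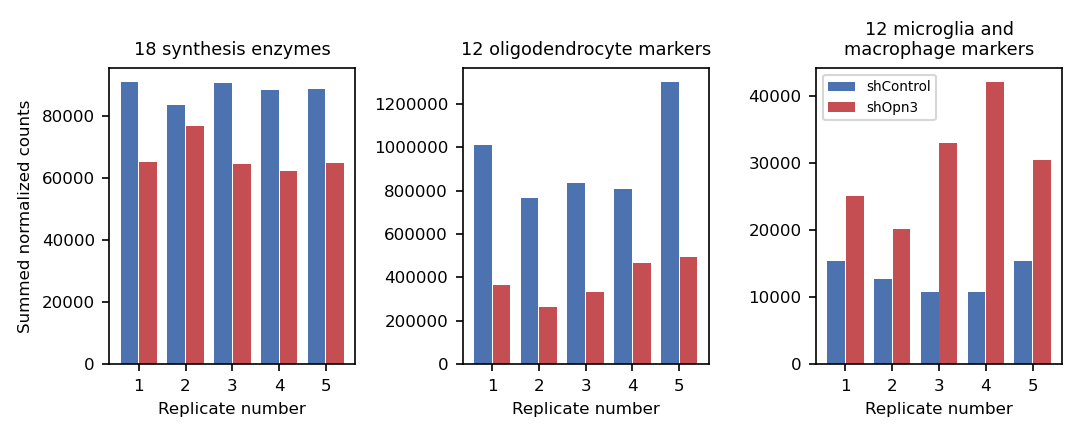
Summed normalized counts by replicate number for the 18 synthesis enzymes, 12 oligodendrocyte markers and 12 microglia and macrophage markers, with paired bars for shControl and shOpn3 and axes that start at 0. Synthesis and oligodendrocyte sums are lower and microglial sums higher in shOpn3 in all 5 pairs.

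The sensing machinery did not pass the test in any member. Of Srebf1, Srebf2, Scap, Insig1 and Insig2, 0 of 5 were called in limma, with 0 at an unadjusted p under 0.05 and 0 in edgeR, DESeq2 or with the replicate block. Srebf2 (ENSRNOG00000007400), the SREBP that chiefly drives cholesterol synthesis, had 5557, 3808, 3628, 3923 and 4622 normalized counts in shControl and 4307, 3822, 3434, 3586 and 4198 in shOpn3 (log2 fold change -0.14, SE 0.117, limma adjusted p = 0.443). Insig1 (ENSRNOG00000006859), itself a classical SREBP target, had 4302, 4169, 4506, 4161 and 3850 in shControl and 3148, 5048, 4081, 3393 and 3537 in shOpn3. Its highest value of all 10 samples was in shOpn3 replicate 2, and without that library its log2 fold change was -0.25 and its limma adjusted p 0.0709. Scap, Insig2 and Srebf1 had 89.5%, 95.1% and 95.8% of the control mean. These transcript levels do not measure the cleaved SREBP proteins.

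Movement of cholesterol out of the lysosome split between its 2 Niemann-Pick proteins. Npc1 (ENSRNOG00000012016), the membrane protein that passes cholesterol through the lysosomal membrane, had 5175, 5005, 4969, 4727 and 6735 normalized counts in shControl and 3587, 2854, 3466, 4133 and 3819 in shOpn3. The groups did not overlap, with shControl replicate 5 high (log2 fold change -0.57, SE 0.115, limma adjusted p = 0.00482). Npc2 (ENSRNOG00000012062), the soluble partner that hands cholesterol to Npc1, had 6711, 6562, 5913, 5979 and 7468 in shControl and 9166, 6900, 10029, 11222 and 9108 in shOpn3. It rose in 5 of 5 pairs, and shOpn3 replicate 2 lay within the control range (log2 fold change 0.50, SE 0.119, limma adjusted p = 0.0122). Without pair 3 or pair 4 the call of Npc2 was lost. Lipa, the acid lipase that frees cholesterol from esters, had 3820 ± 701 and 4376 ± 434 (SD, n = 5 each; limma adjusted p = 0.271), and the sterol carrier Stard4 stood at 99.2% of the control mean (limma adjusted p = 0.960). The span of Npc1 overlaps that of Rmc1 in RefSeq GRCr8 and that of Idi1 overlaps Wdr37, so reads of either could be shared where strand was not used.

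Among efflux genes 1 of 6 was called, beside 10.4% of all genes called higher. Abca1 (ENSRNOG00000018126), which loads cholesterol onto apolipoproteins, had 5173, 6292, 5074, 4904 and 5735 normalized counts in shControl and 10704, 8355, 10091, 10308 and 8340 in shOpn3. The groups lay far apart and the shOpn3 mean was 1.76 times the control mean (log2 fold change 0.81, SE 0.0980, limma adjusted p = 0.000367). In the authors' deposited table the log2 fold change of Abca1 was 0.81 (standard error 0.109). Abcg1 (ENSRNOG00000001158), the exporter usually induced with Abca1, had 2372, 1997, 2012, 2085 and 2602 in shControl and 2648, 1867, 2076, 2288 and 2150 in shOpn3. The values of Abcg1 were intermixed, at 99.6% of the control mean (log2 fold change -0.01, SE 0.105, limma adjusted p = 0.973).

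Mylip (ENSRNOG00000017579), an LXR target that encodes a ubiquitin ligase for lipoprotein receptors, had 1152, 1125, 1095, 1114 and 1132 normalized counts in shControl and 1144, 1328, 1736, 1635 and 1252 in shOpn3. The controls were tight and only shOpn3 replicate 1 lay among them (log2 fold change 0.32, SE 0.110, limma adjusted p = 0.0633, or 0.0464 with the replicate block). Without shOpn3 replicate 1 it was called, with a log2 fold change of 0.39. With the block 2 of the 6 efflux genes were thus called higher, where 15.1% of all genes were. Apoe (ENSRNOG00000018454), the main apolipoprotein of the brain, had 78597, 34657, 27006, 31852 and 61427 in shControl and 56989, 28833, 32551, 46902 and 49400 in shOpn3. All 5 shOpn3 values of Apoe lay within the control range of 27006 to 78597 (limma adjusted p = 0.939). The LXR genes Nr1h2 and Nr1h3 went from 525 ± 169 to 427 ± 77.2 and from 161 ± 55.2 to 174 ± 35.5 (SD, n = 5 each; limma adjusted p = 0.422 and 0.692).

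Of 4 storage and oxysterol genes 3 were called higher, beside 10.4% of all genes. The log2 fold changes of all 4 lay above 0 (median 0.52). Cyp46a1 (ENSRNOG00000007147), the hydroxylase of neurons whose product leaves the brain, had 1836, 1303, 1235, 1307 and 1738 normalized counts in shControl and 2639, 2551, 2245, 2066 and 2517 in shOpn3. The groups did not overlap (log2 fold change 0.71, SE 0.123, limma adjusted p = 0.00209). Ch25h (ENSRNOG00000019141), an oxysterol enzyme known to be induced by interferon in macrophages, had 185, 129, 137, 139 and 157 in shControl and 190, 249, 292, 431 and 223 in shOpn3. The groups of Ch25h met almost at replicate 1, with 185 and 190, and replicate 4 was the highest (log2 fold change 0.84, SE 0.199, limma adjusted p = 0.0115). Soat1 (ENSRNOG00000004111), which esterifies cholesterol for storage, had 1085, 1212, 1239, 1236 and 1067 in shControl and 1578, 1193, 1603, 1759 and 1316 in shOpn3 (log2 fold change 0.34, SE 0.108, limma adjusted p = 0.0450).

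The groups of Soat1 overlapped at shOpn3 replicate 2, and its call was lost when any shControl library or shOpn3 replicate 1, 3 or 4 was left out, with adjusted p up to 0.115 in limma. The call of Soat1 was also lost with no low-value filter. Without pair 3 Cyp46a1 alone of the 4 was called. Cyp27a1, a mitochondrial sterol hydroxylase, had 255 ± 50.0 and 284 ± 84.7 (SD, n = 5 each; limma adjusted p = 0.702). Over all 37 members, 7 were lower and 3 higher without overlap of the groups, where 7.23% and 8.03% of all genes were.

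**Figure D4:**
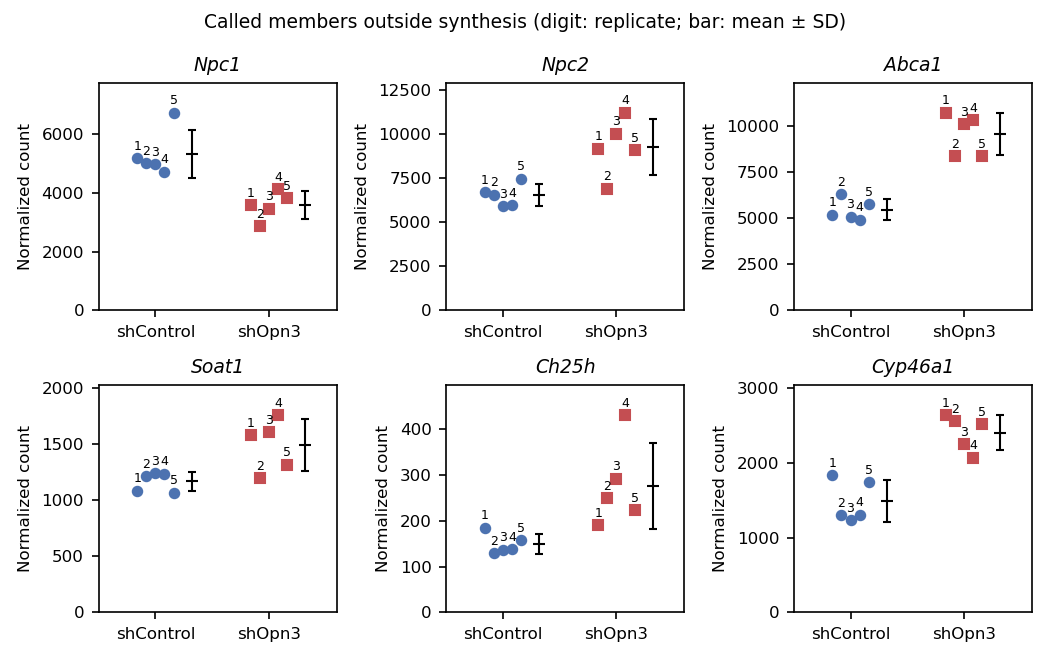
Normalized counts of the 6 called members outside synthesis, with 1 point per sample labelled by its replicate number and a bar for the mean ± SD (n = 5 each). Npc1 is lower in shOpn3, and Npc2, Abca1, Soat1, Ch25h and Cyp46a1 are higher, with overlap of the groups in Npc2 and Soat1.

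Neighbouring genes of the system were read from lists written for this purpose, of which 83 genes were tested, 15 called lower and 7 higher, beside 8.48% and 10.4% of all genes. The share called higher was thus no larger than over all genes. Of 11 further synthesis genes 3 were called lower and 0 higher (0 higher in edgeR or DESeq2, 1 at an unadjusted p under 0.05, and 1 in limma with the replicate block). They included Acss2 and Acly, which supply acetyl-CoA, with log2 fold changes of -0.34 and -0.36 (SE 0.0622 and 0.112, limma adjusted p = 0.00293 and 0.0434). The groups of Acss2 did not overlap, while those of Acly did, with 4 of 5 pairs lower. Of 13 fatty acid genes under SREBP control 5 were lower and 0 higher (0 higher at an unadjusted p under 0.05, in edgeR or in DESeq2). The elongase Elovl5 averaged 5723 ± 201 in shControl against 3967 ± 334 in shOpn3 (SD; log2 fold change -0.53, SE 0.0705, n = 5 each; limma adjusted p = 0.000533). The desaturase Scd2 fell from 247535 ± 23303 to 172000 ± 7121 (SD, n = 5 each; limma adjusted p = 0.00539), and Acsl1, which activates fatty acids, from 5031 ± 328 to 4067 ± 192 (SD, n = 5 each; limma adjusted p = 0.00752).

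Uptake genes were lower in 3 of 9 tested and higher in 0 (0 higher at an unadjusted p under 0.05, in edgeR or in DESeq2, and 1 in limma with the replicate block). Among them Vldlr, a lipoprotein receptor, fell from 3719 ± 261 to 3133 ± 251 (SD; log2 fold change -0.25, SE 0.0766, n = 5 each; limma adjusted p = 0.0400). Of 14 further efflux and apolipoprotein genes 3 were lower and 3 higher. Apod, an apolipoprotein of oligodendrocytes, fell from 18068 ± 5801 to 8089 ± 2291, whereas Lpl, which hydrolyses lipoprotein triglyceride, rose from 392 ± 24.7 to 896 ± 304 (SD, n = 5 each; limma adjusted p = 0.00525 and 0.00177). Abca7, a lipid transporter, changed by -0.54 (SE 0.139, limma adjusted p = 0.0177).

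Of 11 further storage and oxysterol genes 2 were higher and 0 lower (1 lower at an unadjusted p under 0.05, 1 in limma with the replicate block, 0 in edgeR or DESeq2). The 2 were Osbpl11, an oxysterol-binding relative, and Cyp7b1, which hydroxylates oxysterols. Both rose, with log2 fold changes of 0.38 and 0.49 (SE 0.0706 and 0.110, limma adjusted p = 0.00316 and 0.00838). Of 15 transport and contact-site genes Gramd1b was higher and Osbpl5 lower (log2 fold changes 0.29 and -0.43, SE 0.0898 and 0.121, limma adjusted p = 0.0394 and 0.0266). In SREBP processing 1 of 10 was called, the protease gene Mbtps2, which was higher (log2 fold change 0.39, SE 0.113, limma adjusted p = 0.0319). The counts of these last 2 lists are near the shares of all genes called.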

How the data were processed

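Per the submitters' processing notes, FastQC, STAR, featureCounts and DESeq2 were used; versions, genome build, annotation and strand setting are not given in the sources used here. The deposited table holds, as signal, read counts that the authors divided by a size factor per sample (0.942 to 1.07). Each positive value was a whole multiple of the sample's smallest one, within 0.001 reads, for 100% of values. Per the file headers, the authors' comparison is given beside it as a log2 fold change with its standard error, a Wald score and p-values.

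For this report, log2(normalized count + 1) values of 15597 genes with a mean of at least 10 were compared with limma 3.58.1 (lmFit, eBayes with a trend, R 4.3.3), two-sided, with the group as only term; edgeR 4.0.16 and DESeq2 1.42.0 were run on recovered reads as alternatives, and the procedure was tested on simulated data. Other alternatives were the pseudocount, the filter, the scaling, the replicate block and left-out samples. The labels say that each rat gave a nucleus to both groups, not that equal numbers mark a rat. Across genes, each sample's departure from its group mean correlated with that of the equally numbered sample (r 0.12 to 0.44 over 5 pairs; median 0.40, against -0.21 with a range of -0.45 to 0.36 over 20 pairs of different numbers). Every equally numbered pair exceeded 0.1, though the highest value for different numbers lay above the lowest for equal ones. The departures of a gene cancel out within a group, so high values for equal numbers lower those for different numbers. The values for different numbers are therefore no independent baseline. The numbers were taken as pairs. The main limma fit does not use these pairs and treats both nuclei of a rat as independent samples. The fit with the replicate block uses them. P-values of the main fit rest on the spread between samples within a group. Those of the block fit rest on the spread of the differences between paired samples.

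Members, gene lists and motifs were chosen with earlier results of these data known. All members are reported; of each further list up to 3 called genes with the smallest adjusted p are named, and a few genes picked by it are left out here. Of the further and marker genes listed, those with a mean under 10 or outside the table were not tested. No gene lengths of the authors' annotation were at hand, so levels are not compared between genes.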

Additional observations from a re-analysis of the deposited data

Results flagged for a closer look

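About 1 in 20 groups is expected to hold a sample set well apart from the other 4 by chance, which is 3.7 of the 74 groups of 5 values examined (37 members, shControl and shOpn3). There were 4. Fdps was highest in shControl replicate 1, at 7710 normalized counts against 6427 in its nearest neighbour, and so was Acat2, at 1183 against 985. Msmo1 reached 7864 in shOpn3 replicate 2, where the nearest other value was 6506. Npc1 reached 6735 in shControl replicate 5, where the nearest other value was 5175.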

How the results depend on the processing

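Of the 15 members called, 6 (Hmgcs1, Cyp51, Msmo1, Npc1, Abca1 and Cyp46a1) kept their call and direction in all 26 alternative fits. Over all 15, 61 of 390 values kept the direction and lost the call, and none of these members changed sign. Enzymes of synthesis called lower ranged from 4 (without pair 4) to 8 with 1 library or 1 pair left out, against 9, and numbered 5 without pairs 1 and 5 together, a fit chosen after seeing the data; over all genes that fit called 1704 lower and 1721 higher, more than with all samples, and the cause was not tested. With the replicate block they numbered 13 in limma and in edgeR. Efflux genes called higher numbered 2 in DESeq2, with quantile normalization, with either replicate block and without pairs 1 and 5, and 1 to 2 with 1 library or 1 pair left out; each time the second was Mylip. Movement genes called higher ranged from 0 (without pair 3 or 4) to 1, and storage and oxysterol genes from 1 (without pair 3) to 3. Over all genes, 2376 (limma) and 2490 (edgeR) were called lower with the replicate block against 1322, and with 1 library or 1 pair left out 643 to 1409 were called lower and 960 to 1648 higher. Apart from Mvk, Pmvk, Lss, Ebp and Mylip, the block changed no other call among the members. Of the further genes named, Acss2, Elovl5, Acsl1, Apod, Lpl and Osbpl11 kept their call in all alternative fits. Acly, Scd2, Vldlr, Abca7, Cyp7b1, Gramd1b, Osbpl5 and Mbtps2 lost theirs in 1 or more.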

Other observations

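In 9 of the 37 members, namely Mvk, Pmvk, Mvd, Lss, Tm7sf2, Srebf1, Srebf2, Scap and Apoe, replicates 1 and 5 were the highest 2 samples of both groups. This was so for 13.6% of all genes tested. Such a pattern itself widens the spread within groups, so that 0 of these 9 were called is no separate result. In 11 of the 18 synthesis enzymes shOpn3 replicate 2 was the highest of its group, among them 8 of the 9 called ones, where 23.1% of all genes had that sample highest. Both patterns were noticed in these data and their cause was not tested.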
